A study of Mus musculus with 6 samples.

Results

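The 10 genes described here encode surface or secreted proteins through which tumour cells can restrain immune cells or complement. They were chosen by name, and each matched 1 of the 39179 genes counted. They are the checkpoint ligands Cd274, Cd276, Pvr and Cd200, the phagocytosis inhibitor Cd24a, the ectoenzyme Nt5e, the galectins Lgals1, Lgals3 and Lgals9, and the complement regulator Cd55. Expression was measured by poly(A)-selected RNA sequencing of mouse B16-F10 melanoma cells, a pigmented C57BL/6 line, grown in culture. The 3 libraries labelled Sirpa-KO come from cells in which Sirpa, the gene of the CD47 receptor SIRPα, was knocked out. The 3 libraries labelled Sirpa-WT come from cells with Sirpa intact, and no treatment or time is given for either group. How the knockout was made, and whether it is 1 clone or a pool, is not stated in the labels. Label fields give the tissue as tumour and the cell line as Pmel, while the series text describes cultured B16-F10 cells. Nothing in the labels says whether replicates came from separate cultures; p-values here reflect library-to-library spread, which may be technical.

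Tumour cells can use several surface and secreted proteins to hold back immune attack. PD-L1 (Cd274) engages PD-1 on T cells, CD155 (Pvr) binds TIGIT, CD96 and the activating receptor DNAM-1 on T and NK cells, and CD200 engages the inhibitory receptor CD200R on myeloid cells. B7-H3 (Cd276) is a B7 family protein whose receptor is less settled. CD24 is bound in humans by Siglec-10 on macrophages, and CD73 (Nt5e) converts AMP to the suppressive nucleoside adenosine. Galectins bind glycans on other cells: galectin-1 can kill or silence activated T cells, galectin-3 crosslinks surface glycoproteins, and galectin-9 is a ligand of TIM-3. CD55 speeds the decay of complement convertases.

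One library stood apart. Replicate 1 of Sirpa-KO (hereafter the deep library) held 29877270 counts, 82.6 times the mean of the other 5, which held 338824 to 411695 and are called the shallow libraries. Pearson's r of log2 CPM across genes, which are not independent replicates, ran at 0.920 to 0.945 for pairs of shallow libraries, but at 0.0424 to 0.120 for pairs that include the deep one. Pseudogenes took 0.216% of counts in the deep library, against 27.0% to 30.2% in the shallow ones. CPM, a gene's count scaled to the library's total, is thus hard to compare across this divide. A set of 3901 protein-coding genes averaged at least 28 CPM in the shallow libraries. Their deep over pooled shallow CPM had a median log2 ratio of 0.87, with quartiles of -0.75 and 1.33. Results are given with and without the deep library. Sirpa had 1584, 6 and 6 counts in the libraries labelled Sirpa-KO and 12, 7 and 3 in Sirpa-WT, so its RNA does not check the labels. All 8 listed melanocyte markers were present, at a summed 16000, 12710 and 13080 CPM in Sirpa-KO and 19160, 17360 and 16050 CPM in Sirpa-WT. Markers of other cells were low: the summed 10 leukocyte markers reached 5.02 to 32.6 CPM in Sirpa-KO and 12.1 to 26.2 CPM in Sirpa-WT, with 6 of the 10, Ptprc and Cd3e among them, at 0 in each shallow library. In each shallow library most of that sum was the myeloid integrin gene Itgam, at a level near that of Pvr. Itgam had 1, 5 and 9 counts in Sirpa-KO and 3, 7 and 5 in Sirpa-WT. The 1 count in the deep library equals 0.0335 CPM. The part of Itgam in the results was not tested. The 4 fibroblast markers summed to at most 10.9 CPM in any library. The 3 endothelial markers were at 0 in each shallow library, and the 2 keratinocyte markers summed to at most 2.95 CPM.

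RefSeq promoter windows on GRCm38.p6 were available for 7 of the 10 genes. The windows of Lgals9, Lgals3 and Cd274 are shown because Lgals9 RNA was readily measured, Lgals3 RNA was nearly missing from the same cells, and Cd274 is the classical interferon-induced ligand. Each line holds the 250 bases before the start site, 5′ to 3′ on the gene's strand. Capitals mark matches on either strand to GAAA and GAAA set 2 bases apart (the core of the interferon-stimulated response element, ISRE), CATGTG (the core of the M-box, to which MITF binds in pigment cells) and GGGCGG (the GC box); these motifs do not overlap each other here.
Lgals9 (chr11:78984925-78985174, minus strand): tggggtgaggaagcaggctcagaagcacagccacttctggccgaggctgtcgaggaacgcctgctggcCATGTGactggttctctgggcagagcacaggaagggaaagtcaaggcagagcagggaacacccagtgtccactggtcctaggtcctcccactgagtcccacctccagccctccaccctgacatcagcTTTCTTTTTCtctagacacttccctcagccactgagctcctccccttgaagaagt
Lgals3 (chr14:47373610-47373859, plus strand): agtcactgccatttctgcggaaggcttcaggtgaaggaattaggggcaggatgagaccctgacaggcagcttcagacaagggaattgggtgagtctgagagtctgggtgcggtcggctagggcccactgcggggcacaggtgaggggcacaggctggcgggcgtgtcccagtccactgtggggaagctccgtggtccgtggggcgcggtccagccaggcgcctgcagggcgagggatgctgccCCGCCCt
Cd274 (chr19:29367188-29367437, plus strand): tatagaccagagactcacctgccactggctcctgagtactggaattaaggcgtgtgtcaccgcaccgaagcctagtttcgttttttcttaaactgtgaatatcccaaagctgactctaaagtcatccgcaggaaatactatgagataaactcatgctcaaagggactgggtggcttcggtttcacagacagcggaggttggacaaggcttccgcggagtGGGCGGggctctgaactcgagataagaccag
Lgals9 has a further ISRE core match that begins 16 bases into the transcript, shown with its neighbouring bases.
Lgals9 (chr11:78984890-78984919, minus strand): atagctgtggTTTCTGTTTCctagctcagc
In windows that run from 250 bases before to 50 after the start, Lgals9 thus held 2 ISRE core matches, the first beginning at -55. At least 1 match was present in 3.49% of 27025 promoter windows of the same length, and at least 2 in 0.252%. None of the other 6 windows held one. A GC box was found in each of those 6 (Cd274, Cd276, Cd200, Nt5e, Lgals3 and Cd55) and not in Lgals9, against 35.9% of all windows. CATGTG was found in Lgals9 and Cd200, against 14.1% of all windows. The Lgals9 window held 4 CpG dinucleotides, where Lgals3 held 18 and Cd274 15, and the median over all windows was 7. These are descriptions of letters, and no binding was measured.

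The 10 genes ran from nearly no counts to a level above most detected genes, and galectin-1 RNA far exceeded that of the other members. Levels between genes are given as CPM per kilobase of exon. Lgals1 averaged 770 ± 91.5 CPM per kilobase over the 5 shallow libraries (SD, n = 5) and Lgals9 60.05 ± 15.4. Pvr (3.31 ± 1.81), Cd276 (1.999 ± 1.52) and Cd274 (1.05 ± 0.34) followed on the same scale, and Lgals3, Nt5e, Cd200 and Cd55 were at 0. Lgals1 stood above 99.6% to 99.9% of detected protein-coding genes per length in each of the 6 libraries, and Lgals9 above 89.1% to 95.5%. The order Lgals1, Lgals9, then the checkpoint ligands held in each of the 6 libraries. Pvr, Cd276 and Cd274 could not be ranked against each other in Sirpa-WT, where each rested on 1 to 5 counts a library and their counting intervals overlapped. Lgals1 alone took 88.8%, 78.5% and 77.4% of the counts of the 10 genes in Sirpa-KO and 77.3%, 85.2% and 81.0% in Sirpa-WT.

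**Figure D1:**
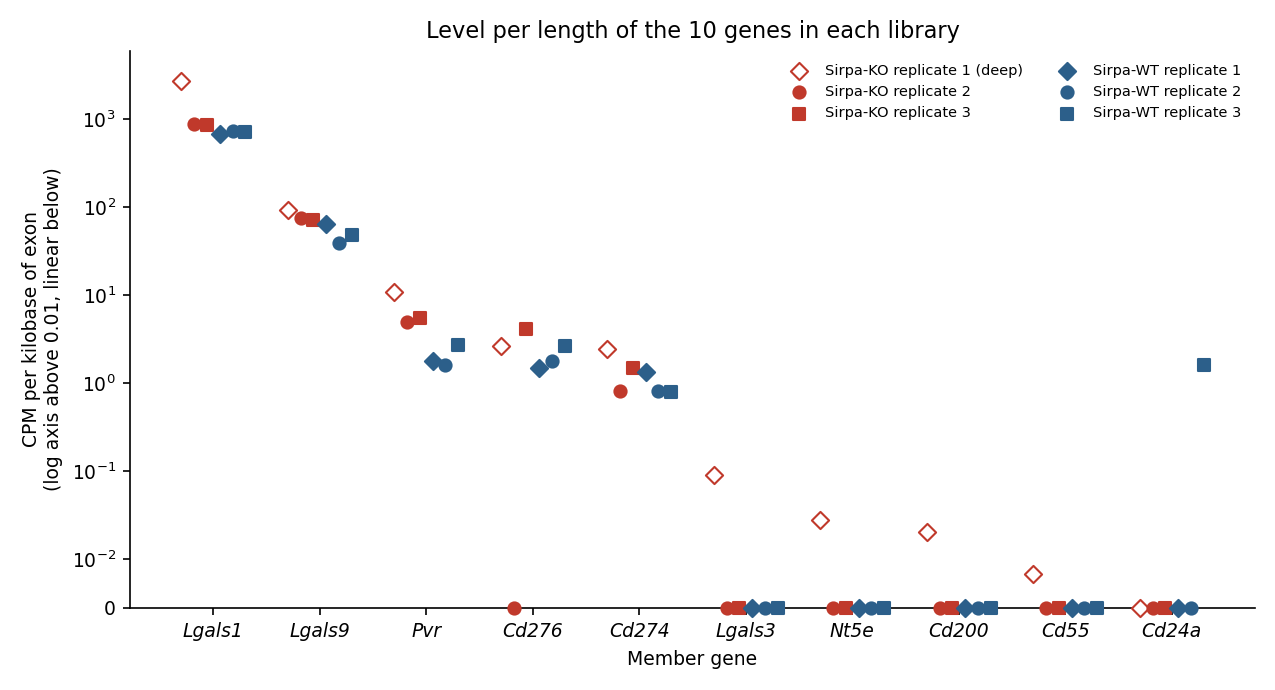
Level per length (CPM per kilobase of exon, log axis above 0.01 and linear below) of the 10 genes in the 3 Sirpa-KO (red) and 3 Sirpa-WT (blue) libraries; each point is 1 library and the open diamond is the deep one. Lgals1 lies at 674 to 2726, Lgals9 at 39.5 to 92.5, and Lgals3, Nt5e, Cd200 and Cd55 leave 0 in the deep library alone.

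Among the galectins, Lgals1 (ENSMUSG00000068220, GRCm38 chromosome 15, 78926725 to 78930465, plus strand, 4 exons) was the most abundant. It had 65167, 237 and 253 counts in Sirpa-KO, or 2181, 699.5 and 688 CPM. In Sirpa-WT it had 222, 201 and 196 counts, or 539, 585 and 567 CPM. The 3 Sirpa-KO values lay above the 3 Sirpa-WT values, with the deep library far above all others. The counting intervals of the shallow libraries overlapped between groups (613 to 794 CPM in Sirpa-KO replicate 2, against 471 to 615 CPM in Sirpa-WT replicate 1). The log2 fold change was 0.90 ± 0.56 over 6 libraries (SE, 95% interval -0.46 to 2.26, edgeR quasi-likelihood adjusted p = 0.574) and 0.18 ± 0.12 over the 5 shallow libraries (-0.060 to 0.42, adjusted p = 0.418). It passed neither test, and the size over 6 libraries rests on the deep library. The Lgals1 level in the deep library was 3.56 times that in the pooled shallow ones, a ratio higher than that of 92.5% of the 3901 genes. With the trend on that ratio removed from the 5 shallow libraries, the value was -0.043 ± 0.12 (edgeR adjusted p = 0.929), so its sign turned. The deep library is itself labelled Sirpa-KO, so here and for other genes removing the trend can also remove a difference between the groups. The retrocopies annotated as Lgals1-ps1 and Lgals1-ps2 had at most 4 counts in any library, and 0.665% of the 25-base words of Lgals1 transcripts occur in other annotated genes.

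Lgals9 (ENSMUSG00000001123, chromosome 11, 78962974 to 78984946, minus strand, 11 merged exons) was the other well-measured galectin. It had 5904, 55 and 56 counts in Sirpa-KO, or 198, 162 and 152 CPM. In Sirpa-WT it had 57, 29 and 36 counts, or 138, 84.3 and 104 CPM. The groups did not overlap, although Sirpa-WT replicate 1 came within the counting intervals of both shallow Sirpa-KO libraries. The log2 fold change was 0.49 ± 0.30 over 6 libraries (SE, 95% interval -0.24 to 1.22, edgeR adjusted p = 0.574) and 0.39 ± 0.21 over 5 (-0.025 to 0.80, adjusted p = 0.279). Lgals9 did not pass either test, and unlike Lgals1 its ratio to the deep library was ordinary, above that of 41.6% of genes. It stood at 0.31 ± 0.21 with the trend removed (adjusted p = 0.578).

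Lgals3 (ENSMUSG00000050335, chromosome 14, 47367751 to 47386160), whose product is the chimera-type galectin, had 5, 0 and 0 counts in Sirpa-KO and 0, 0 and 0 in Sirpa-WT. The 5 counts equal 0.167 CPM, with exact Poisson 95% bounds of 0.0543 and 0.391. Its sequence is nearly unique, with 0.159% of its words in other genes. The limit for a count of 0 is taken as 3 counts, worth 7.29 to 8.85 CPM in the shallow libraries; the upper ends of the 2-sided exact Poisson intervals there are 8.96 to 10.9 CPM. Within the family of 8 counted galectin genes, Lgals1 made up 87.4%, 74.5% and 76.2% of counts in Sirpa-KO and 70.3%, 75.8% and 76.3% in Sirpa-WT. Lgals9 made up 7.92%, 17.3% and 16.9% in Sirpa-KO and 18.0%, 10.9% and 14.0% in Sirpa-WT. Leaving the deep library aside, the groups overlapped in both shares. Lgals8 made up 4.55%, 7.86% and 6.93% in Sirpa-KO and 11.7%, 12.5% and 9.73% in Sirpa-WT, which did not overlap, although Wilson 95% intervals of shallow libraries did (5.38% to 11.3% in Sirpa-KO replicate 2, against 6.68% to 14.0% in Sirpa-WT replicate 3). The ratio of Lgals1 to Lgals9 per kilobase was 29.5, 11.5 and 12.1 in Sirpa-KO and 10.4, 18.5 and 14.5 in Sirpa-WT, again with overlap among the shallow libraries. The ratio of Lgals9 to Lgals8 per kilobase was 3.0, 3.797 and 4.20 in Sirpa-KO and 2.66, 1.52 and 2.48 in Sirpa-WT, without overlap and with no test run. Such separation was common: over 6 libraries, the CPM of 20.4% of tested genes lay higher in each Sirpa-KO library and that of 10.2% lower. No such share was computed for ratios or for shares within a family.

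**Figure D2:**
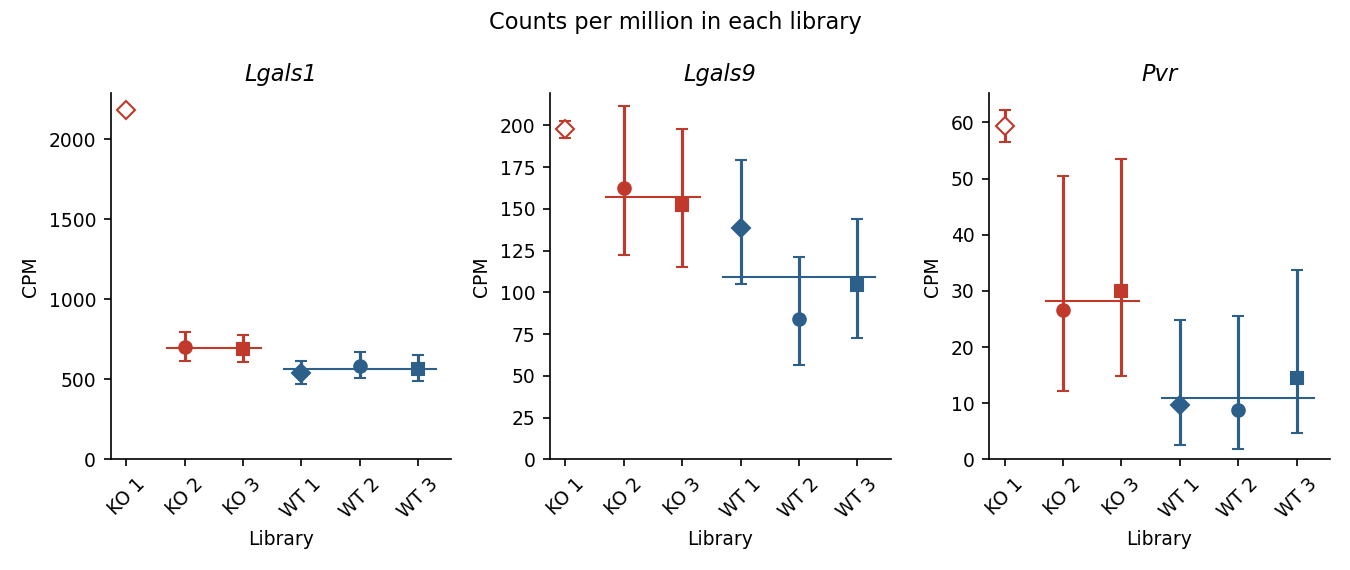
CPM of Lgals1, Lgals9 and Pvr in each library, Sirpa-KO in red and Sirpa-WT in blue, with exact Poisson 95% intervals for counting error only; lines are the means of Sirpa-KO replicates 2 and 3 and of the 3 Sirpa-WT libraries, and the open diamond is the deep library. Each Sirpa-KO value lies above each Sirpa-WT value, while most intervals of the shallow libraries overlap between groups for Lgals1, Lgals9 and Pvr.

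Of the checkpoint ligands, Pvr (ENSMUSG00000040511, chromosome 7, 19903578 to 19921160, minus strand, 8 exons) differed the most. It had 1772, 9 and 11 counts in Sirpa-KO, or 59.3, 26.6 and 29.9 CPM. In Sirpa-WT it had 4, 3 and 5 counts, or 9.72, 8.73 and 14.5 CPM. The groups did not overlap, but the counting intervals of the shallow libraries did (12.1 to 50.4 CPM in Sirpa-KO replicate 2, against 4.70 to 33.8 CPM in Sirpa-WT replicate 3). Pvr did not reach the count filter, and a fit without that filter gave a log2 fold change of 1.43 ± 0.54 over 6 libraries (SE, unadjusted p = 0.0249, edgeR adjusted p = 0.710). Over the 5 shallow libraries it was 1.20 ± 0.54 (SE, unadjusted p = 0.0271, edgeR adjusted p = 0.416), so Pvr failed the correction for all genes tested. It was higher in 3 of 3 libraries labelled Sirpa-KO, as were 20.4% of genes that passed the count filter over 6 libraries. On pooled shallow counts, 20 in Sirpa-KO and 12 in Sirpa-WT, the ratio per total count was 2.597 (exact 95% bounds 1.21 and 5.83, which cover counting error alone). As with Lgals1, deep over shallow CPM was high, at 3.35, above that of 90.3% of the 3901 genes. Pvr averaged 17.9 CPM in the shallow libraries, under the 28 CPM floor of that set, so this rank does not compare like with like. Whether the Pvr difference moves with whatever sets that ratio was not tested, as Pvr was too low for the trend fit.

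Cd274 (ENSMUSG00000016496, chromosome 19, 29367455 to 29388095), the PD-L1 gene, was at trace level. It had 264, 1 and 2 counts in Sirpa-KO, or 8.84, 2.95 and 5.44 CPM, and 2, 1 and 1 counts in Sirpa-WT, or 4.86, 2.91 and 2.89 CPM. The groups overlapped, and no shallow library exceeded 2 counts. Of its 25-base words 15.4% occur in other genes, the highest share of the 10, and for Cd276 it was 11.03%; what this took from their counts was not tested. Pooling shallow counts, the ratio came to 1.17 (exact 95% bounds 0.171 and 6.91), so several-fold changes in either direction were not detectable. The neighbouring PD-L2 gene Pdcd1lg2 had 5 counts in the deep library and 0 in each shallow one.

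Cd276 (ENSMUSG00000035914, chromosome 9, 58524300 to 58555132), the B7-H3 gene, was as low. It had 263, 0 and 5 counts in Sirpa-KO, or 8.80, 0 and 13.6 CPM, and 2, 2 and 3 counts in Sirpa-WT, or 4.86, 5.82 and 8.68 CPM. The Sirpa-KO libraries lay on both sides of all Sirpa-WT libraries. Pooling shallow counts, the ratio came to 1.11 (exact 95% bounds 0.279 and 4.07). An unnamed gene on the other strand, with 0 counts, overlaps 3.37% of its exon bases. Cd200 (ENSMUSG00000022661, chromosome 16, 45382135 to 45409053) had 2, 0 and 0 counts in Sirpa-KO and 0, 0 and 0 in Sirpa-WT, so the ligand of CD200R stood at 0.0669 CPM in the deep library.

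The remaining surface genes were close to absent from the counts. Nt5e (ENSMUSG00000032420, chromosome 9, 88327609 to 88372089), the CD73 gene, had 3, 0 and 0 counts in Sirpa-KO and 0, 0 and 0 in Sirpa-WT. Cd55 (ENSMUSG00000026399, chromosome 1, 130439027 to 130462744) had 1, 0 and 0 counts in Sirpa-KO and 0, 0 and 0 in Sirpa-WT. Of the Cd55 words, 14.9% are shared with other genes, mostly its tandem copy Cd55b, which had 0 counts in each of the 6 libraries. The opposite-strand gene Gm16083, with 3 counts in the deep library, overlaps 2.10% of Cd55 exon bases. Cd24a (ENSMUSG00000047139, chromosome 10, 43579169 to 43584262) had 0, 0 and 0 counts in Sirpa-KO and 0, 0 and 1 in Sirpa-WT. Its words were 5.91% shared with other genes, mostly annotated retrocopies. For these 5 genes, Lgals3 and Cd200 included, no fold is given, since both groups were at or under 3 counts in each shallow library. Cd24a was at 0 in the deep library, where 3 counts equal 0.100 CPM.

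Over all genes, edgeR called 0 of 5397 tested genes with 6 libraries (0%; 344 had an unadjusted p under 0.05). On the same 6 libraries DESeq2 called 1 gene, higher (0.0185%), and limma voom called 1283 (23.8%), of which 17 were higher (0.315%) and the rest lower (23.5%). With the 5 shallow libraries edgeR called 322 of 5510, which is 5.84%, with 73 higher (1.32%) and 249 lower (4.52%). DESeq2 called 2.4% there and limma voom 5.39%. Scaled by library size alone, the edgeR split was 279 higher and 128 lower. Only Lgals1 and Lgals9 of the 10 genes passed the count filter in either fit, and 0 of these 2 were called with 6 or with 5 libraries by edgeR or limma voom, or by DESeq2, which gave Lgals9 no adjusted p over 5 libraries. In both edgeR fits 0 of the 2 had an unadjusted p under 0.05. Of the 8 genes under the filter, 0 passed the adjusted threshold without it, and 2 had an unadjusted p under 0.05 over 6 libraries, Pvr and Cd24a. The Cd24a value rests on its single count (edgeR adjusted p = 0.507). Non-overlap of groups was common among tested genes: 20.4% lay higher in each Sirpa-KO library than in any Sirpa-WT library over 6 libraries, and 26.3% over the 5 shallow ones. The separation of Lgals1, Lgals9 and Pvr is to be read against those shares. For single genes, an exact 2-sided permutation test of 3 against 3 libraries gave p = 0.1 for Lgals1, Lgals9 and Pvr, the smallest p that design allows. Scaling by library size alone in place of TMM shifted the median log2 fold change of all genes to 0.15, against 0.013, in the 5-library fit, so the values above are relative to the bulk of genes.

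**Figure D3:**
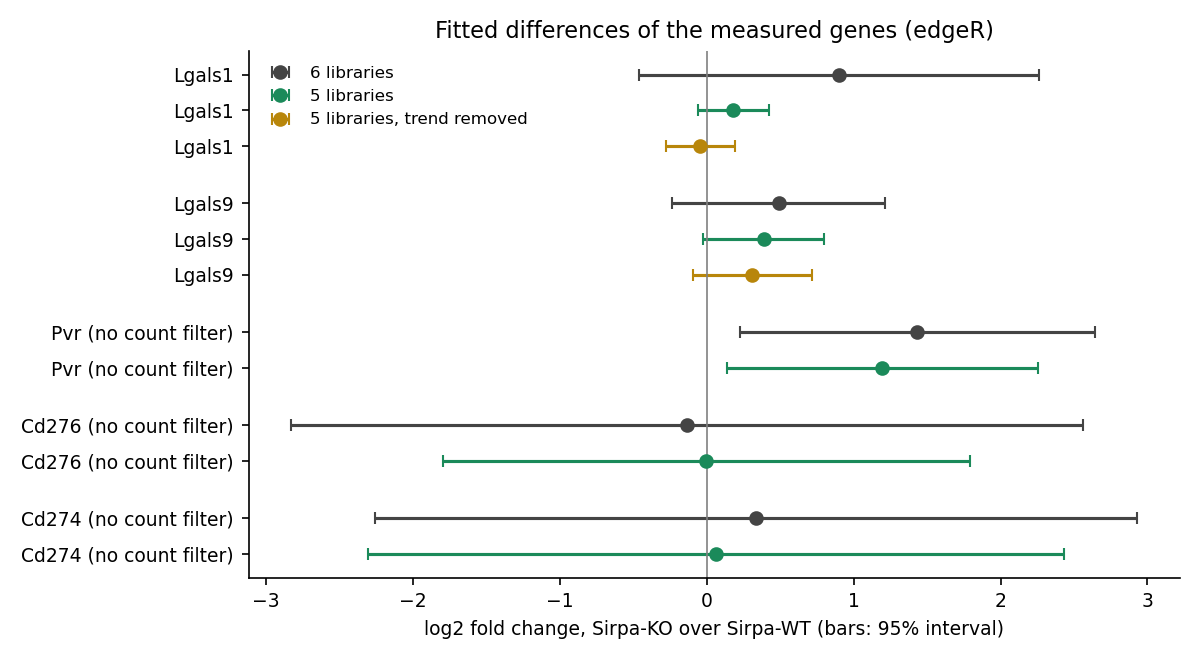
Log2 fold change of Sirpa-KO over Sirpa-WT with 95% interval (edgeR) for the 5 genes with counts in most libraries, over 6 libraries (grey), 5 shallow libraries (green) and, for the 2 genes that passed the count filter, 5 libraries with the trend on the deep library's ratio removed (ochre). Pvr lies at 1.43 and 1.20, the Lgals1 value drops to -0.043 with the trend removed, and the Cd276 and Cd274 intervals span several-fold changes both ways.

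Genes that act with these proteins were described from 9 lists, whose levels were counted in the same way. Each list is given by its counts and by its called or most abundant gene, with a few others. B2m, the MHC class I light chain that also engages an inhibitory receptor on human macrophages, was the 1 called gene of 13 tested in the 9 lists, where 5.84% of all tested genes were called in the 5-library fit, so the count is near the background. Over 6 libraries, 20.4% of tested genes lay higher in each Sirpa-KO library than in any Sirpa-WT library. B2m was among them, at 613, 363 and 492 CPM in Sirpa-KO and 253, 326 and 272 CPM in Sirpa-WT. Over the 5 shallow libraries it rose, at 0.48 ± 0.15 on the log2 scale (SE, edgeR adjusted p = 0.0276), but it was not called with DESeq2 (adjusted p = 0.129), with the trend removed (0.34, edgeR adjusted p = 0.270) or over 6 libraries (0.63 ± 0.32, edgeR adjusted p = 0.574). Its list of 3 phagocytosis inhibitors had 2 tested genes, and Cd47, the ligand of SIRPα, stood at -0.24 ± 0.39 in the 5-library edgeR fit.

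The regulators of PD-L1 ranged from well measured to trace level. Of 11 listed, 5 did not reach the count filter, 6 were tested and 0 passed in either fit, with a median log2 fold change of -0.20 over 5 libraries where all genes had 0.013. Jak1, a kinase of the interferon receptors, was the most abundant at 152, 375 and 318 CPM in Sirpa-KO and 427, 401 and 350 CPM in Sirpa-WT. Cmtm6, which keeps PD-L1 at the cell surface, stood at -0.33 ± 0.27 over 5 libraries (SE, edgeR adjusted p = 0.516). Of 8 other B7 family genes, 7 were in the files and 0 reached the count filter. The most abundant, the ICOS ligand gene Icosl, had 50, 3 and 4 counts in Sirpa-KO and 2, 1 and 0 in Sirpa-WT. These equal 1.67, 8.85 and 10.9 CPM in Sirpa-KO and 4.86, 2.91 and 0 CPM in Sirpa-WT, so the groups overlapped through the deep library alone. Among the shallow libraries both Sirpa-KO values lay above each Sirpa-WT value, on 4 or fewer counts each. The same held for 26.3% of genes that passed the count filter over those 5 libraries. Of 5 nectin and nectin-like genes, kin of Pvr, 0 reached the filter. The most abundant of these, the adhesion gene Cadm1, had 119, 14.8 and 8.16 CPM in Sirpa-KO and 12.1, 14.5 and 5.79 CPM in Sirpa-WT, so among the shallow libraries it did not separate the groups as Pvr did.

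The adenosine pathway was measured at its intracellular end. Adenosine kinase (Adk), which phosphorylates adenosine to AMP, had 98.8, 162 and 147 CPM in Sirpa-KO and 170, 204 and 168 CPM in Sirpa-WT. Adk thus lay lower in each Sirpa-KO library than in any Sirpa-WT library, as did 10.2% of tested genes over 6 libraries. Its log2 fold change over 5 libraries was -0.34 ± 0.20 (SE, edgeR adjusted p = 0.313), and with Ada it was 1 of 2 tested genes of 11, of which 0 passed; their median was -0.30. The ectonucleotidase gene Entpd1, whose product acts just before CD73, had 1, 0 and 1 counts in Sirpa-KO and 0, 0 and 1 in Sirpa-WT. Of 7 further galectin-related genes, 2 were tested and 0 passed, with a median of -0.0043 over 5 libraries. Lgals8, a tandem-repeat galectin, was the most abundant of them, at 114, 73.8 and 62.6 CPM in Sirpa-KO and 89.9, 96.0 and 72.3 CPM in Sirpa-WT, with a log2 fold change of -0.46 ± 0.27 over 5 libraries (SE, edgeR adjusted p = 0.327).

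Among 11 further complement genes, 7 had no count in any shallow library and 1 was tested. This was C1qbp, a mitochondrial protein that can bind C1q, at 134, 204 and 247 CPM in Sirpa-KO and 209, 163 and 208 CPM in Sirpa-WT, with a log2 fold change of 0.10 ± 0.18 over 5 libraries (SE, edgeR adjusted p = 0.807). The rodent membrane regulator Cr1l had 50.2, 8.85 and 13.6 CPM in Sirpa-KO and 12.1, 5.82 and 8.68 CPM in Sirpa-WT, so some complement control RNA other than Cd55 was present. A list of 8 immune receptors holds receptors of the 10 proteins and also Sirpa, which is a receptor of none of them. Of the 8, 6 had 0 counts in each shallow library and 0 were tested. The TIM-3 gene Havcr2, whose product binds galectin-9, had 137, 1 and 0 counts in Sirpa-KO and 2, 1 and 0 in Sirpa-WT. The 137 counts in the deep library equal 4.585 CPM, and the 2 counts in Sirpa-WT replicate 1 equal 4.86 CPM. Sirpa was the most abundant of the list. In these bulk samples, fewer cells carrying an RNA and less RNA per cell cannot be told apart.

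**Figure D4:**
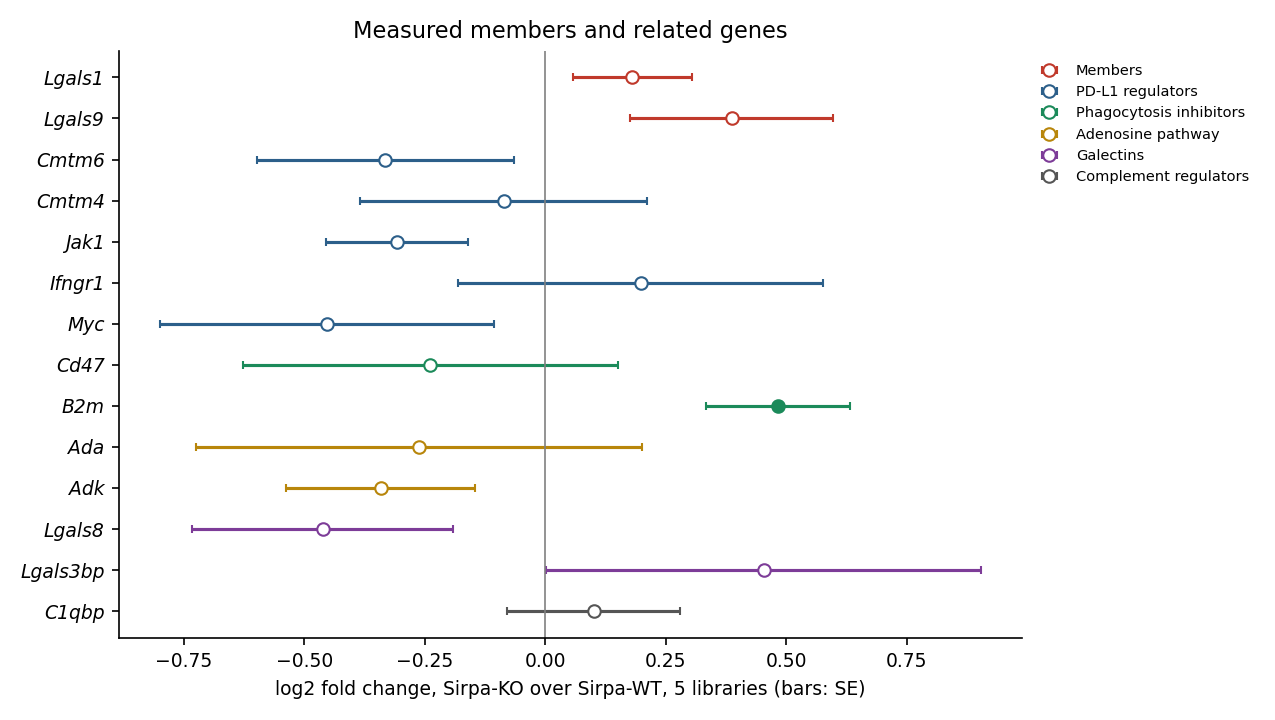
Log2 fold change of Sirpa-KO over Sirpa-WT in the 5 shallow libraries (edgeR, bars are SE) for Lgals1, Lgals9 and 12 of the 13 tested genes of the related lists, coloured by list; filled points passed the adjusted threshold. B2m, at 0.48, is the filled point, and Lgals9 (0.39) and Lgals8 (-0.46) lie on opposite sides of 0 without passing.

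The patterns most like those of the 2 measured galectins were taken as the smallest root mean square difference of centred log2 CPM over 6 libraries among 4203 tested protein-coding genes. Lgals1 was most like Sqstm1 (0.064), which encodes the autophagy receptor p62, and Psme4 (0.066), which encodes a proteasome activator. Lgals9 was most like Aftph (0.080) and the kinase gene Braf (0.11). These distances include the deep library.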

How the data were processed

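Poly(A)-selected RNA of B16-F10 cells was sequenced in 3 libraries labelled Sirpa-KO and 3 labelled Sirpa-WT, grouped by sample title. Per the file headers, the deposited counts are raw fragments per gene, made by the authors with featureCounts 1.5.1 on annotated exons (GRCm38, Ensembl GTF of release 75). STAR 2.6.0 and Subread stand in the submitters' processing notes. The kit was stranded per the labels, while the header's command sets neither strandedness nor multi-mapping. Symbols came from a GENCODE M21 table by identifier (37607 of 39179 genes).

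Counts were filtered with filterByExpr (minimum count 10), scaled by TMM, and compared by the quasi-likelihood test of edgeR with robust=TRUE. P-values were 2-sided and adjusted by Benjamini-Hochberg across the whole fit, at a threshold of 0.05, over 6 libraries and again without Sirpa-KO replicate 1. Each edgeR SE was derived from the test, as the absolute log2 fold change over the square root of its F statistic. Intervals of fold changes used this SE and t quantiles. Sets had no test. Log2 CPM used a prior count of 2, and the trend a lowess span of 0.3. Scripts were tried on simulated data. Alternatives were other scalings, filters and tools, protein-coding genes, a replicate block, thinning, trend removal and leaving out each library. The tools were edgeR 4.0.16, DESeq2 1.42.0 and limma 3.58.1 under R 4.3.3. Shallow libraries give 1 count a weight of 2.43 to 2.95 CPM. Intervals of CPM, of pooled ratios and of galectin shares cover counting error only. Same-group shallow libraries were not copies of the same counts: chi-square over degrees of freedom was 1.18 to 1.65 by pair. This value cannot tell separate cultures from repeat libraries of the same RNA.

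The members and lists were chosen with earlier results of these data known. All 10 members are named; of each related list, its called genes or else its most abundant one. Cmtm6, Cd47, Entpd1, Cr1l, Pdcd1lg2, Cd55b, Havcr2, Itgam, Ada, Ulbp1, Raet1e, H60b, Ido1, Il10, Dct, Mitf and Pmel were named after their values were seen. Some listed genes are not reported here singly.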

Additional observations from a re-analysis of the deposited data

How the results depend on the processing

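The count of 0 members called held under each of 17 alternatives over 6 libraries and 16 over 5. For the 8 members under the count filter, fits without that filter over 6 libraries also called 0, under the 11 alternatives run for them. Lgals3, Nt5e, Cd200, Cd55 and Cd24a had at most 1 count in any shallow library, so these fits say little about them. Without Sirpa-KO replicate 1, Lgals3, Nt5e, Cd200 and Cd55 had no counts and were not tested. The count of 0 genes over 6 libraries became 1283 by limma voom and 1 by DESeq2. Dropping each library in turn gave 0 to 322, with 322 without Sirpa-KO replicate 1. Over 5 libraries, the 322 calls became 132 with DESeq2, 196 in protein-coding genes and 109 with the trend on the deep library's ratio removed. They became 125 to 351 with each library left out, the low end being 125 and 127 without Sirpa-KO replicates 2 and 3, which leaves 1 Sirpa-KO library assumed to vary like the Sirpa-WT ones; without Sirpa-WT replicate 2 it was 214. The cause of these differences was not tested. Lgals1 turned to -0.043 with the trend removed; its other values ran up to 0.32 over 5 libraries and from 0.18 to 1.21 over 6. Lgals9 ran from 0.23 to 0.61 over 5 libraries and from 0.24 to 0.74 over 6. The replicate block called 0 genes over 6 libraries and 316 over 5, with Lgals9 at 0.61 (edgeR adjusted p = 0.124). Deviations of same-numbered libraries correlated at -0.042 to 0.058 over 6 libraries, and those of differently numbered ones at -0.063 to 0.065. No pairing was seen, but counting error in the shallow libraries could hide one, so whether the numbers pair libraries is not settled. Depth limits the shallow libraries: Pvr, Cd276 and Cd274 had at most 11 counts in each.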

Other observations

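Ligands of the activating NK receptor NKG2D, which work against the inhibitors above, were also at low levels, and were picked for mention after their values were seen. Ulbp1, the MULT1 gene, had 53.2, 26.6 and 24.5 CPM in Sirpa-KO and 17.0, 17.5 and 8.68 CPM in Sirpa-WT, on 9 or fewer counts in each shallow library. Raet1e, of the RAE-1 family, had 536, 5 and 1 counts in Sirpa-KO and 3, 1 and 2 in Sirpa-WT, and H60b had 69, 0 and 0 in Sirpa-KO and 0, 0 and 0 in Sirpa-WT. None of the 16 genes in that list of other inhibitors and ligands reached the count filter, and 12 had no count in any shallow library. The tryptophan-degrading enzyme Ido1 and the cytokine Il10 were at 0 in each of the 6 libraries, where 3 counts in the deep library equal 0.100 CPM. Of the 8 melanocyte markers, Dct (-1.02 ± 0.08), Mitf (-0.76 ± 0.13) and Pmel (-0.48 ± 0.11) fell over the 5 shallow libraries (log2 fold change ± SE, edgeR adjusted p = 6.33e-32, 2.42e-06 and 0.00154). The other 5 were not called there, where 4.52% of all tested genes were called lower, and 0 of 8 were called over 6 libraries. In the deep library Dct (2496 CPM) and Mitf (449 CPM) also lay below each Sirpa-WT library, while Pmel (1221 CPM) lay above each. Over 6 libraries, 10.2% of tested genes lay lower in each Sirpa-KO library than in any Sirpa-WT library.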
